A study of Penicillium oxalicum with 72 samples.

Results

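In *Penicillium oxalicum*, 86 of 283 listed transcription factor (TF) genes reached their highest level in cultures without a carbon source (NC). The list is the TF block in the supplement of the study. For each gene, FPKM (fragments mapped per transcript length and library size) was averaged over the 3 libraries of each of 24 conditions, with a gene left out of a library set to 0, and a gene was kept when its highest mean was at least 1 and belonged to an NC condition. The rule also left out 15 genes by name, and it would have kept none of them. The level of the members on NC relative to other conditions was therefore fixed by the rule and is given only as a description. Of the 281 TF genes that reached 1 FPKM in some condition mean, 30.6% were highest on NC, as were 27.0% of the 9380 such genes in the genome, while NC made up 16.7% of the conditions.

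RNA-sequencing covered 72 libraries of mycelium of strain ΔPoxKu70, which lacks *PoxKu70* and was used in every condition. Mycelium pre-cultured on glucose was moved to medium with 1% Avicel (AV, microcrystalline cellulose), wheat bran (WB), methyl cellulose (MC), 2-hydroxyethyl cellulose (HEC) or glucose (GLU), or to medium with no carbon source (NC), and was harvested 4, 12, 24 and 48 h later, so the NC cultures too had grown on glucose before. Each condition had 3 libraries, which the study calls biological replicates, and the p-values below measure the spread between them. In words, the labels of the HEC libraries name methyl cellulose, and those of replicate 3 of NC at 24 h name 4 h, so the conditions follow the short names.

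FPKM summed to between 924393 and 1255914 per library (median 995771), and 9243–9568 genes were listed. Of the 72 libraries, 71 correlated best with another library of their own condition, and replicate 1 of AV at 12 h correlated best with a library of HEC at 12 h. The scale of FPKM also moved with the condition. A size factor from the median of ratios over genes was lowest in the 4 h libraries of HEC (0.707–0.791) and in replicate 3 of AV at 12 h (0.705), and highest in the libraries of NC at 24 h (1.21–1.32), GLU at 48 h (1.28–1.31) and AV at 24 h (1.22–1.24). Most genes thus had higher FPKM in the libraries with a high factor. With every value divided by this factor (rescaled below), the rule kept 60 of the 86 members and found 66 in all. More RNA from a gene per cell and a larger share of the cells that express it cannot be told apart in such bulk samples.

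TFs of filamentous fungi bind DNA through a small number of domain types, of which the fungal zinc cluster (Zn2Cys6) is by far the most common, followed by C2H2 zinc fingers, bZIP, homeodomain, Myb and winged helix domains. When a readily used sugar runs out, fungal mycelium is known to recycle its own material, to secrete proteases and other hydrolases, and to form conidia, the asexual spores, on specialised stalks. In *Aspergillus nidulans*, FlbD activates the start of conidiation, AbaA acts later in the cells that bud off spores, and NsdD and SteA, the counterpart of yeast STE12, are needed for sexual development.

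The members came from most domain types in the list. There were 50 of 142 Zn2Cys6 genes, 9 of 32 C2H2 genes, 6 of 14 winged helix genes, 3 of 17 bZIP genes, 2 of 9 homeodomain genes, 2 of 8 genes with a CENP-B type DNA-binding region, 2 of 6 Myb genes and 2 of 3 fork head genes. The APSES, MADS-box and GATA types had 1 member of 3 each, and none of the 4 HMG genes was a member. By role, 5 of 8 developmental regulators were members, namely POX07099/FlbD, POX07025, POX08415/NsdD, POX01257/STE12 and the APSES gene POX03789. The others were the APSES genes POX00057 and POX05211, highest on GLU at 48 h and 4 h, and the mating-type gene POX08009, highest on AV at 48 h. The conidiation regulator BrlA was left out by name, is not among the 8, and would not have been kept by the rule. POX07025 has a TEA/ATTS domain and is called AbaA in the study. Of 10 genes with a domain tied to secondary metabolism, 5 were members, which were the Zn2Cys6 genes with an aflatoxin regulatory domain POX01183, POX02059 and POX03427 and the winged helix genes with an O-methyltransferase domain POX04926 and POX09116. Of 11 genes of the general transcription machinery, the MIZ-type zinc finger gene POX00838 and POX04032/ADA2, a subunit of the SAGA coactivator in yeast, were members. Of 4 nutrient regulators only the p53-like gene POX04099 was, which belongs to the protein family of XprG, a regulator of protease production in starved *A. nidulans*. All 5 proteasome subunits in the list had their highest level on GLU at 4 h, and none was a member.

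The highest NC level fell at 4 h for 18 members, at 12 h for 8, at 24 h for 33 and at 48 h for 27. Among all 2532 genes highest on NC, these times held 372, 126, 1108 and 926 genes. The median range over the NC time course, from the lowest to the highest of the 4 means, was 2.59-fold for the members highest at 4 h, 3.05-fold for 12 h, 2.09-fold for 24 h and 4.36-fold for 48 h. Levels rose at every step for 16 of the 27 members highest at 48 h and fell at every step for 6 of the 18 highest at 4 h. The map of all members by condition shows these groups as blocks, with wide dark columns at 4 h on WB and GLU. The lowest of the 24 conditions was WB at 4 h for 40 members (46.5%) and GLU at 4 h for 16 (18.6%), compared with 41.5% and 8.72% of the other TF genes and 20% and 8.97% of the 9380 genes.

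**Figure D1:**
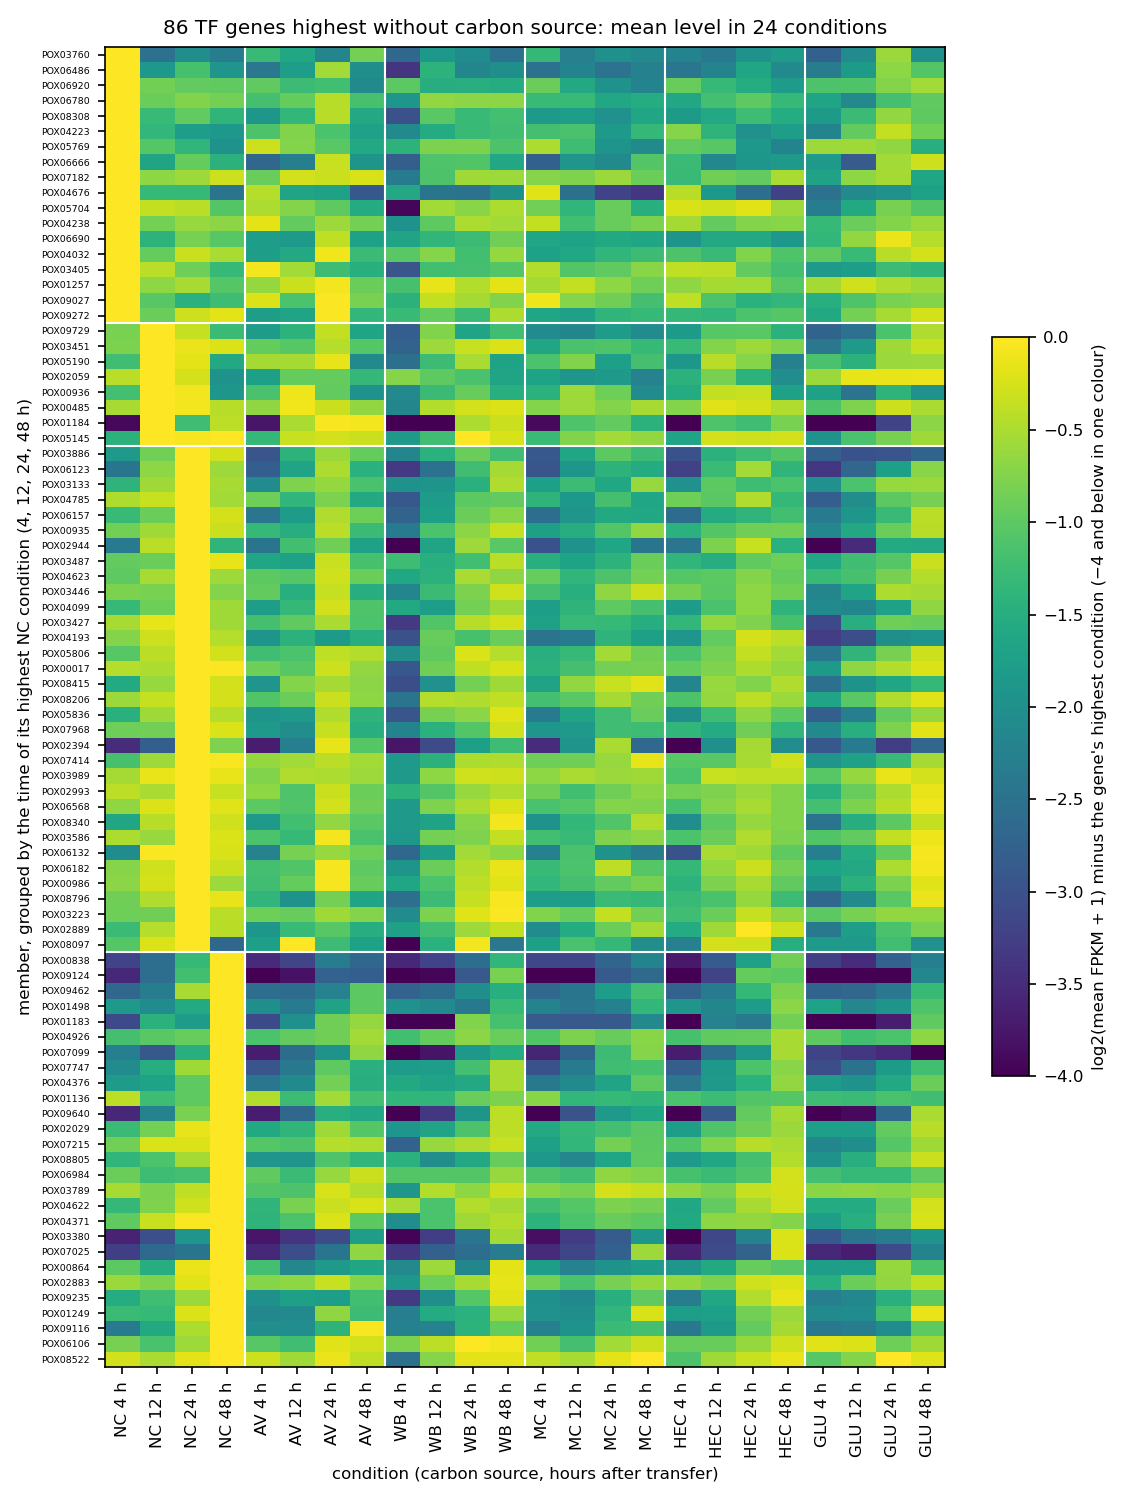
Mean level of the 86 members (rows, grouped by the time of the highest NC condition) in the 24 conditions (columns), as log2(mean FPKM + 1) minus that of the gene's highest condition. By the rule each row reaches 0 in an NC column. The darkest cells lie mostly at 4 h on WB and GLU, where 40 and 16 members had their lowest mean.

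Among the developmental regulators, POX07099/FlbD was highest late. On NC its 3 libraries gave 88.7, 86.6 and 54.6 FPKM (mean 76.6 ± 19.1) at 4 h (mean ± SD, n = 3 here and below), 41.6, 51.3 and 54.7 FPKM (mean 49.2 ± 6.78) at 12 h, 133, 117 and 151 FPKM (mean 134 ± 17) at 24 h and 339, 419.6 and 364 FPKM (mean 374 ± 41.1) at 48 h. All 3 libraries at 48 h lay above the other 9, and above those of HEC at 48 h, the highest condition with a carbon source, with 246, 281 and 258 FPKM (mean 262 ± 18.2). POX07025/AbaA went from 1.41, 1.33 and 2.69 FPKM (mean 1.81 ± 0.763) at 4 h to 4.72, 3.48 and 3.59 FPKM (mean 3.93 ± 0.686) at 24 h and 30.3, 26.1 and 21.4 FPKM (mean 25.9 ± 4.44) at 48 h. Its libraries of NC at 48 h overlapped with those of HEC at 48 h, 23.6, 20.4 and 22.6 FPKM (mean 22.2 ± 1.65).

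The other developmental members had a flatter course. POX08415/NsdD, a GATA-type factor, went from 123 ± 25.7 FPKM on NC at 4 h to 362 ± 28.1 at 24 h, and its NC libraries at 24 h (332, 366 and 388) overlapped with those of MC at 48 h (279.7, 320 and 346). POX01257/STE12 was highest on NC at 4 h with 285, 276 and 240.1 FPKM (mean 267 ± 23.8) and lowest among NC times at 48 h with 128 ± 13.5 FPKM. It stood at 254 ± 8.63 on AV at 24 h, within the range of its NC peak. The APSES gene POX03789, of the family of the developmental regulator StuA, reached 225, 188 and 212 FPKM (mean 209 ± 19.2) on NC at 48 h, above the 3 libraries of AV at 24 h (175 ± 5.25). After rescaling, NsdD and POX03789 were highest on MC, at 48 h and 24 h, and left the group.

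The genes with domains tied to secondary metabolism differed widely in level. POX01183, whose aflatoxin regulatory domain occurs in AflR, the activator of aflatoxin genes in *Aspergillus*, gave 21.3, 25 and 36.3 FPKM (mean 27.5 ± 7.82) on NC at 4 h and 304, 185 and 239 FPKM (mean 243 ± 59.8) at 48 h, where all 3 libraries exceeded those of AV at 48 h, 162, 135 and 173 FPKM (mean 157 ± 19.6). POX02059, with the same domain, had the opposite course on NC, from 78 ± 9.64 FPKM at 12 h to 19.3 ± 4.04 at 48 h. Its NC libraries at 12 h overlapped with those of GLU at 48 h (72.2 ± 3.6 FPKM). On NC the means of POX03427 stayed between 42.4 and 63.1 FPKM, while its lowest mean of all conditions was 5.42 on WB at 4 h. The O-methyltransferase-type genes POX09116 and POX04926 were below 1 FPKM on NC at 4 h (0.213 and 0.17 FPKM) and reached 5.13 ± 0.342 and 1.65 ± 0.825 at 48 h. There POX09116 overlapped with AV at 48 h (4.97 ± 0.384) and POX04926 with HEC at 48 h (0.85 ± 0.173). After rescaling, POX02059 was highest on GLU at 12 h and POX09116 on AV at 48 h, and both left the group.

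The most abundant member was the Zn2Cys6 gene POX02944, with 1376, 1589 and 1346 FPKM (mean 1437 ± 132) on NC at 24 h. It was followed by POX01184, a winged helix gene numbered next to POX01183, with 835, 687 and 769 FPKM (mean 764 ± 74) at 12 h, and by the C2H2 gene POX06486, with 914, 797 and 421 FPKM (mean 711 ± 258) at 4 h. The libraries of POX06486 spread so far that its peak overlapped with AV at 24 h, 300.4, 454 and 697 FPKM (mean 484 ± 200.2). The C2H2 gene POX08097, 621 ± 265 FPKM on NC at 24 h, had an even wider spread and a nearly equal mean on AV at 12 h (618 ± 357). The Zn2Cys6 gene POX09124 had 29.3, 58.7, 151 and 349 FPKM at the 4 times, and the 3 libraries at 48 h (359, 369 and 319) all exceeded those of WB at 48 h (223, 178 and 198).

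Margins over the carbon sources were small. The mean in the highest NC condition exceeded that in the highest condition with a carbon source by a median of 1.17 times (range 1.00 to 1.97), no member reached a difference of 1 on the log2(FPKM + 1) scale, and 25 members stayed under 1.1 times. For 31 members the 3 libraries of the NC peak all lay above the 3 of that condition, and for 55 they overlapped. The other genes highest on NC were not checked in this way, so the counts are not read as particular to the members. The highest condition with a carbon source was AV for 31 members, WB for 20, GLU for 17, HEC for 14 and MC for 4, and it fell at 48 h for 46 members and at 24 h for 32. The largest margins in ratio belonged to 2 weakly expressed genes at 48 h, the homeodomain-like gene POX09462 (5.97 ± 0.658 FPKM against 3.03 ± 0.344 on HEC) and POX04926, whose libraries overlapped. Among genes above 10 FPKM the MIZ-type gene POX00838 had the largest. Its family includes SUMO ligases of yeast, and its level went from 8.0, 8.3 and 9.63 FPKM (mean 8.64 ± 0.868) on NC at 4 h to 84.4, 92.3 and 84.8 FPKM (mean 87.2 ± 4.44) at 48 h, compared with 51.3, 45.7 and 45.6 FPKM (mean 47.5 ± 3.3) on HEC at 48 h.

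At the edge of the rule, POX08522, annotated as the fork head factor HCM1 that acts in the cell cycle of yeast, had 36.2 FPKM on NC at 48 h and 36.1 on MC at 48 h, and POX08097 and POX05145 (121 and 120.1 FPKM) were nearly as close. Just outside, POX09252 (12.49 FPKM on NC against 12.53 on MC at 4 h), POX07901 (30.7 against 30.9) and POX02314 (66.3 against 66.9) missed it by as little. The lowest peaks among members were 1.51 FPKM for POX06984, 1.65 for POX04926 and 1.75 for POX01136, these 3 genes fell below the filter for tests, and no TF gene with a peak under 1 FPKM was highest on NC. UBR1 (POX03989), an E3 ubiquitin ligase of the N-end rule, is listed for its winged helix domain but was not counted among the winged helix genes above. It varied little on NC, with 32.8 to 48 FPKM, and had 43.5 on GLU at 24 h.

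**Figure D2:**
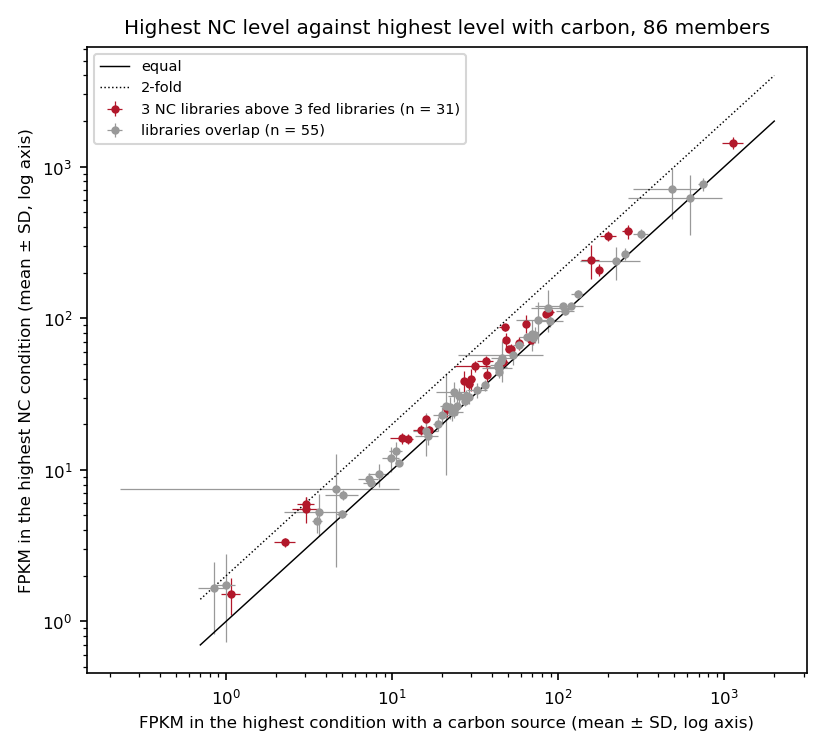
FPKM of the 86 members in their highest NC condition (vertical) against their highest condition with a carbon source (horizontal), each as mean ± SD of 3 libraries on log axes, with lower bars that would reach 0 shortened. All points lie between the line of equality and the 2-fold line. The 31 members in red have 3 NC libraries above the 3 others, and the 55 in grey overlap, a check not made on other genes.

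For each time, every carbon source was set against NC in a limma fit of 6 libraries. A gene was called when p was at most 0.05 and the difference of log2(FPKM + 1) at least 1, the thresholds of the study. Of the 86 members, 83 averaged at least 1 FPKM over all libraries and entered the fits, as did 8898 genes in all. Since the rule used these contrasts, nothing is read from the counts. On WB, lower levels were called for 53, 16, 15 and 6 of the 83 members at 4, 12, 24 and 48 h, where 21.7%, 10.1%, 11.1% and 6.36% of all genes were. On GLU, they were called for 37, 34, 26 and 14 of the 83 members at 4, 12, 24 and 48 h, where 17.5%, 18.4%, 15.0% and 9.10% of all genes were. On MC, they were called for 15, 20, 34 and 25 of the 83 members at 4, 12, 24 and 48 h, where 8.22%, 9.54%, 18.2% and 14.5% of all genes were. The count was highest on WB at 4 h, where the median difference of the members was -1.29, against -0.17 for all genes.

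On AV the corresponding counts were 13, 9, 8 and 21 of the 83 members at 4, 12, 24 and 48 h, where 5.10%, 7.19%, 6.27% and 8.92% of all genes were. HEC had the lowest counts from 12 h on, with 16, 2, 5 and 4 of the 83 members at 4, 12, 24 and 48 h, where 6.90%, 1.56%, 4.64% and 3.48% of all genes were. Higher levels than on NC were called for 2 members on AV at 24 h (4.12% of all genes), 1 on WB at 24 h (5.80%), 1 on HEC at 48 h (4.96%), 1 on GLU at 24 h (4.93%) and 4 on GLU at 48 h (5.27%), and for none in the other 15 comparisons. At 4 h on WB, POX01183 stood at 0.123 FPKM against 27.5 on NC, and POX01184 at 0.65 against 49.6. After rescaling, the sums over 4 times of members called lower than on NC went from 51 to 32 on AV, from 90 to 76 on WB, from 94 to 39 on MC, from 27 to 9 on HEC and from 111 to 88 on GLU, so the counts on MC, HEC and AV moved with the scale of the libraries.

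Comparisons among carbon sources hold no NC library and were tested with the same fit and call. They share the 3 GLU libraries of their time. The rule had used the same libraries to find each gene's highest condition, and it left out TF genes highest on GLU. The counts, those below GLU in particular, are therefore not independent of the rule. The first question was whether TF genes that are highest without carbon were also higher on AV, WB, MC or HEC than on GLU at the same time. At 4 h, 20 members were higher and 1 lower on AV than on GLU, against 13.3% and 7.26% of all genes. On MC 13 were higher (11.4% of all genes) and 1 lower (6.08%), and on HEC 17 higher (10.6%) and 2 lower (9.65%). WB differed, with 3 higher (9.62%) and 15 lower (9.55%). Of the 191 other TF genes tested, 20.4% were lower on WB, against 18.1% of the members, and 16.2%, 16.8% and 10.5% were higher on AV, MC and HEC, against 24.1%, 15.7% and 20.5% of the members. The shares on WB and MC were thus close in the other TF genes. The median difference of the members at 4 h was 0.45 on AV, 0.31 on MC, 0.24 on HEC and -0.22 on WB, beside -0.08, -0.07, -0.21 and -0.02 for all genes.

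At 12 h, 20 members were higher and 0 lower on HEC than on GLU, against 16.3% and 7.48% of all genes. The members higher and lower were 14 and 2 on AV (14.5% and 10.9% of all genes), 13 and 1 on WB (14.1% and 7.52%), and 7 and 2 on MC (13.0% and 9.90%). At 24 h they were 10 and 1 on AV (10.9% and 5.70%), 8 and 4 on WB (10.8% and 5.93%), 6 and 11 on MC (11.0% and 12.5%), and 17 and 5 on HEC (11.8% and 6.86%). The counts of higher members on HEC therefore stayed above the share in all genes until 24 h, while those on AV, WB and MC at 24 h were near or below it. The shares of the other TF genes higher on HEC, AV, WB and MC were 20.9%, 18.8%, 14.1% and 20.9% at 12 h. Those of the members were 24.1%, 16.9%, 15.7% and 8.43%. At 24 h they were 15.2%, 15.7%, 19.4% and 17.8% of the other TF genes and 20.5%, 12.0%, 9.64% and 7.23% of the members.

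At 48 h 5 members were higher and 15 lower on AV (9.23% and 9.83%), 4 and 13 on MC (8.84% and 18.7%), 8 and 9 on HEC (11.2% and 10.7%) and 7 and 3 on WB (8.20% and 7.61%). The share of members called lower on MC (15.7%) was below that of all genes and near that of the other TF genes (15.2%), and on AV it was 18.1%, against 13.6% of the other TF genes. Called higher on AV, WB, MC and HEC were 6.02%, 8.43%, 4.82% and 9.64% of the members. Of the other TF genes, 15.2%, 13.6%, 16.2% and 16.8% were. Rescaling shifted the median of all genes by between -0.22 and 0.47 in these 16 comparisons, the most on MC at 48 h. With shares of all genes in parentheses, the higher and lower counts at 48 h then became 6 (12.2%) and 5 (5.06%) on AV, 6 (13.5%) and 5 (7.74%) on MC, 10 (14.6%) and 5 (5.26%) on HEC and 9 (10.2%) and 2 (4.52%) on WB, so that lower calls were no longer more frequent than higher ones on AV and MC. The other splits that moved by over 10 percentage points were 8 (13.5%) and 6 (9.22%) on MC and 8 (11.2%) and 2 (5.38%) on WB at 24 h and 9 (10.5%) and 4 (10.1%) on WB at 12 h.

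**Figure D3:**
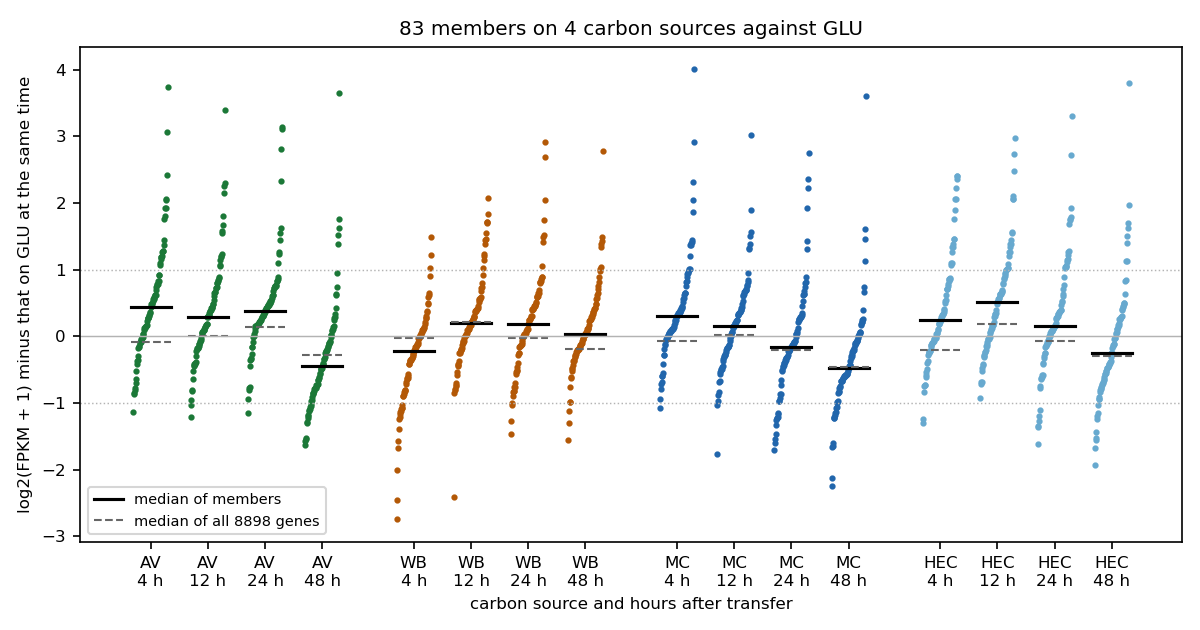
Difference of log2(FPKM + 1) between each of 4 carbon sources and GLU at the same time for the 83 tested members (points, sorted within each column), with the median of the members (black) and of all 8898 genes (dashed). Dotted lines mark a difference of 1. At 4 h the medians of AV, MC and HEC lie at 0.45, 0.31 and 0.24 and that of WB at -0.22, and by 48 h those of AV and MC lie at -0.44 and -0.48.

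The pair POX01183 and POX01184 differed most from GLU at early times. On GLU at 4 h POX01183 had 1.7, 0.77 and 0.92 FPKM (mean 1.13 ± 0.499), whereas AV had 23.7, 24.2 and 34.7 FPKM (mean 27.5 ± 6.21) and MC 32.9, 28.3 and 37.2 FPKM (mean 32.8 ± 4.48), with no overlap. The log2 difference between AV and GLU was 3.75, SE 0.20, adjusted p = 2.31e-06, and that between MC and GLU was 4.00, SE 0.18, adjusted p = 1.62e-06. POX01184 was also higher on AV than on GLU at 4 h (log2 difference 3.07, SE 0.15, adjusted p = 1.38e-06) and at 24 h (3.14, SE 0.13, adjusted p = 6.91e-06). At 12 h its AV libraries held 939, 409 and 259 FPKM, the highest being replicate 1, the library that stood apart. On WB POX01183 was below GLU at 12 h, with 1.45, 1.16 and 1.01 FPKM against 8.73, 11 and 12.6 FPKM (log2 difference -2.41, SE 0.15, adjusted p = 3.43e-06). At 24 h it was above GLU, with 139, 170.1 and 120.2 FPKM against 16.2, 19.4 and 18.4 FPKM (log2 difference 2.91, SE 0.16, adjusted p = 3.54e-05).

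POX07099/FlbD differed from GLU mostly late. At 48 h it had 19.7, 18.1 and 15.6 FPKM (mean 17.8 ± 2.07) on GLU, while the 12 libraries of the other carbon sources held 110.2–281 FPKM. No library overlapped, and the log2 difference was highest on HEC (3.81, SE 0.10, adjusted p = 1.55e-08) and lowest on WB (2.79, SE 0.12, adjusted p = 8.83e-07), with AV at 3.66 and MC at 3.60. At 4 h FlbD was instead lower on WB, with 4.84, 4.34 and 12.8 FPKM, than on GLU, with 43.7, 40.4 and 37.5 FPKM (log2 difference -2.46, SE 0.34, adjusted p = 0.000704). POX07025/AbaA stood at 4.9 ± 0.378 FPKM on GLU at 48 h. It was higher on MC, with 17 ± 1.72 FPKM (log2 difference 1.61, SE 0.10, adjusted p = 2.9e-06), on HEC (1.98, SE 0.10, adjusted p = 7.35e-07) and on AV (1.52, SE 0.11, adjusted p = 1.19e-05), and it was at 4.4 ± 0.707 FPKM on WB.

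Other members were higher on polymers than on GLU at some of the times. The bZIP gene POX02394 had 2.2, 2.59 and 2.21 FPKM (mean 2.33 ± 0.222) on GLU at 24 h, against 26.9, 28.6 and 27.7 FPKM (mean 27.8 ± 0.853) on AV, 21.5 ± 1.59 FPKM on MC and 20.9 ± 2.04 on HEC. The log2 differences were 3.11, 2.76 and 2.72, the highest adjusted p of the 3 being that of HEC (1.24e-05). At 4 h it was instead lower on HEC (0.733 ± 0.068 FPKM) than on GLU (3.3 ± 0.594), with a log2 difference of -1.30, SE 0.14, adjusted p = 0.000185. POX02944 stood at 129.7, 120.3 and 124 FPKM (mean 125 ± 4.71) on GLU at 12 h and 865, 826 and 815 FPKM (mean 836 ± 26.4) on HEC (log2 difference 2.74, SE 0.07, adjusted p = 1.36e-07). At 48 h its means on MC (264 FPKM) and AV (439) were below that on GLU (477), and neither difference was called. POX09124 was higher on HEC at 24 h, with 121, 208 and 212 FPKM (mean 180.3 ± 51.6) against 19, 11.1 and 22.1 FPKM (mean 17.4 ± 5.68), a log2 difference of 3.31, SE 0.31, adjusted p = 0.000171. The homeobox gene POX03886 was higher at 48 h on AV (24.4 ± 3.21 FPKM against 6.5 ± 0.728, log2 difference 1.76, SE 0.12, adjusted p = 7.29e-06).

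Members below GLU included POX02059, the aflatoxin-domain gene with its NC maximum at 12 h. On GLU it had between 51.1 and 72.2 FPKM at the 4 times, and on MC 20.1 ± 2.27 at 12 h and 16.7, 14.5 and 16.4 FPKM (mean 15.9 ± 1.19) at 48 h, with a log2 difference of -1.77, SE 0.10, adjusted p = 1.6e-06 at 12 h and -2.12, SE 0.08, adjusted p = 1.2e-07 at 48 h. At 48 h it was also lower on HEC (-1.93, SE 0.08, adjusted p = 2.96e-07) and WB (-1.55, SE 0.06, adjusted p = 4.85e-07). The C2H2 gene POX05190 (-1.67, SE 0.07, adjusted p = 2.49e-07 on HEC), the bZIP gene POX06666 (-1.63, SE 0.10, adjusted p = 5.35e-06 on AV) and the Zn2Cys6 gene POX06132 (-2.25, SE 0.12, adjusted p = 1.14e-06 on MC) were lower than on GLU at 48 h as well. After rescaling the differences of POX02059 on MC at 48 h, POX05190, POX06666 and POX06132 were -1.63, -1.36, -1.34 and -1.79.

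The second tested question was how the members changed from 4 to 48 h where a carbon source was present, again with no NC library in the fit, although the rule had used the same libraries to find each gene's highest condition. TF genes highest at 4 h on a carbon source could not be members, so the rule limited falls in particular. The counts of rises and falls are therefore not independent of it. On WB 63 of 83 members rose and 0 fell, while 33.0% of all genes rose and 15.9% fell. On GLU 50 rose (30.2% of all genes) and 1 fell (7.55%). Fewer changed on the cellulose substrates, with 31 members rising and 3 falling on HEC (25.1% and 7.48% of all genes), 21 and 4 on MC (16.9% and 12.2%) and 19 and 6 on AV (16.9% and 7.86%). An adjusted p of at most 0.05 gave these same counts on each source.

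The median change of the members was 1.61 on WB, 1.30 on GLU, 0.57 on HEC, 0.51 on MC and 0.40 on AV, beside 0.40, 0.48, 0.45, 0.12 and 0.36 for all genes. Rescaling lowered the median of all genes by between 0.11 (MC) and 0.47 (GLU), and the members rising and falling, with shares of all genes, were then 55 (25.2%) and 1 (22.6%) on WB, 32 (19.2%) and 2 (15.2%) on GLU, 21 (16.3%) and 8 (13.3%) on HEC, 19 (15.2%) and 4 (14.6%) on MC and 15 (11.5%) and 9 (11.1%) on AV. Of the 191 other TF genes tested, 104 rose on WB (54.5%, against 75.9% of the members) and 69 on GLU (36.1%, against 60.2%). Among these 191 genes, 14 fell on WB and 14 on GLU (7.33% each), against 0% and 1.2% of the members. Of the 57 tested members that the rule also kept on rescaled values, 42 rose on WB and 37 on GLU, and 35 and 25 did after rescaling, beside the shares of all genes given above.

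On the cellulose substrates the direction differed with the time at which a member was highest on NC. None of the 18 members highest on NC at 4 h rose on AV or HEC and 1 did on MC, and 5, 3 and 4 of them fell on AV, HEC and MC. Of the 24 tested members highest at 48 h, 11 rose on AV, 18 on HEC and 11 on MC, and none fell. Of all genes, 16.9%, 25.1% and 16.9% rose on AV, HEC and MC, and 7.86%, 7.48% and 12.2% fell. On WB and GLU, by contrast, members of every group rose, namely 9 of 18, 5 of 8, 29 of 33 and 20 of 24 on WB for those highest on NC at 4, 12, 24 and 48 h, and 5, 4, 26 and 15 on GLU. On these 2 sources 33.0% and 30.2% of all genes rose. After rescaling the 4 h group had 6 rises on WB, 1 on GLU, 1 on MC and none on AV or HEC, with 6 falls on AV, 7 on HEC and 4 on MC, and 9, 13 and 10 of the 48 h group rose on AV, HEC and MC. Of all genes, rescaled, 25.2%, 19.2%, 15.2%, 11.5% and 16.3% rose on WB, GLU, MC, AV and HEC, and 11.1%, 13.3% and 14.6% fell on AV, HEC and MC. The grouping by time uses NC libraries only, and the groups were not tested against each other. All genes were not grouped in the same way, so the pattern is not read as particular to the members.

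**Figure D4:**
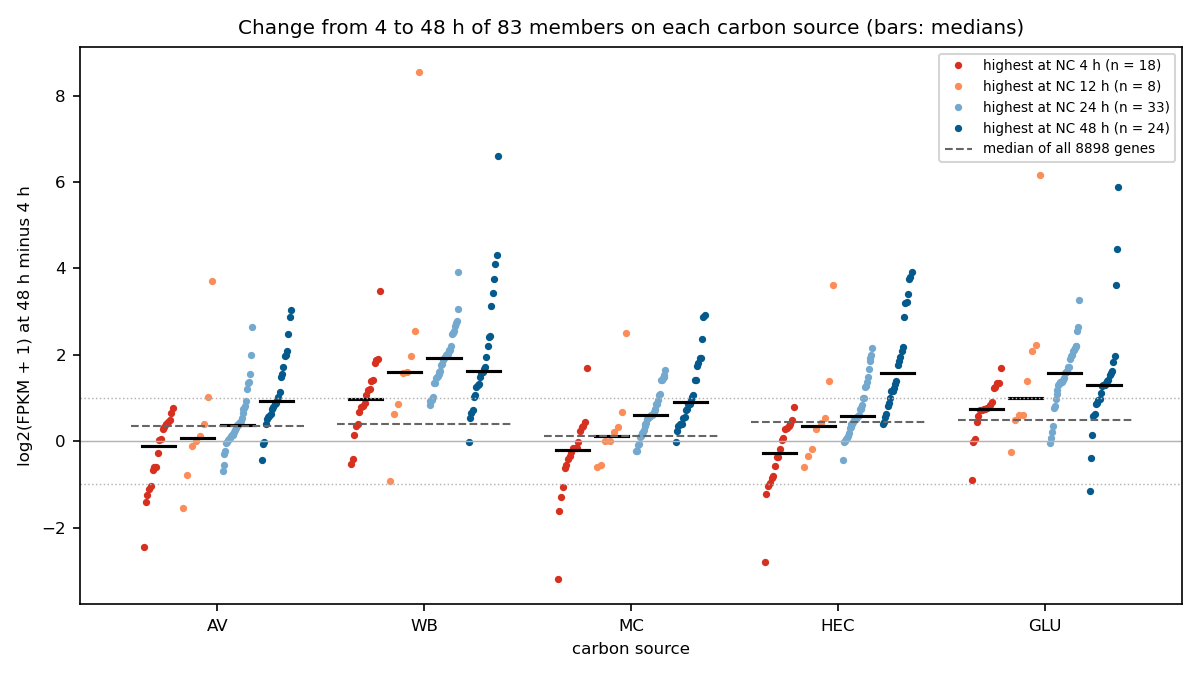
Change of log2(FPKM + 1) from 4 to 48 h on each carbon source for the 83 tested members (points), split by the time of the highest NC condition, with group medians (black bars) and the median of all 8898 genes (dashed). Dotted lines mark a change of 1. On AV, MC and HEC the medians of the 4 h group lie below 0 and those of the 48 h group at 0.91 to 1.58, while on WB and GLU the group medians lie between 0.76 and 1.93.

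The difference between sources was tested by a limma fit of the change from 4 to 48 h on 12 libraries, a test added after the changes had been seen. The rule had used these libraries too and left out TF genes highest at 4 h on a carbon source. The counts are therefore not independent of it, and other TF genes were not counted separately. The change was larger by at least 1 on WB than on AV for 51 members (24.0% of all genes), than on MC for 51 (25.0%) and than on HEC for 40 (19.9%), and smaller for 4, 1 and 2 (22.5%, 14.0% and 23.5%). On GLU it was larger than on AV for 39 (20.6%), than on MC for 30 (22.3%) and than on HEC for 29 (17.1%), and smaller for 5, 3 and 7 (11.6%, 7.52% and 14.2%). These comparisons share the WB or GLU libraries. After rescaling, the change was larger for 51 (23.2%), 39 (20.1%) and 42 (21.5%) members on WB and for 31 (17.3%), 17 (14.4%) and 27 (16.1%) on GLU, in the same order.

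The steepest rises were those of POX01184 and POX01183 on WB. POX01184 went from 0.63, 0.58 and 0.74 FPKM (mean 0.65 ± 0.082) at 4 h to 28.2, 25.3 and 22.5 FPKM (mean 25.4 ± 2.85) at 12 h, 545 ± 77.4 at 24 h and 703, 566 and 576 FPKM (mean 615 ± 76.3) at 48 h. Its log2 change from 4 to 48 h was 8.54, SE 0.12, adjusted p = 8.26e-10. POX01183 went from 0.050, 0.16 and 0.16 FPKM (mean 0.123 ± 0.064) to 117, 103 and 105 FPKM (mean 108 ± 7.41), a log2 change of 6.60, SE 0.11, adjusted p = 1.77e-09. Both were thus below 1 FPKM in every WB library at 4 h and above 100 FPKM in every WB library from 24 h on. On GLU the rise came later, with POX01183 at 18 ± 1.63 FPKM at 24 h and 118, 122 and 129 FPKM (mean 123 ± 5.39) at 48 h, a log2 change from 4 h of 5.88, SE 0.15, adjusted p = 1.32e-08. On MC the log2 change of POX01183 was 0.74, SE 0.13, adjusted p = 0.00096, below the 2-fold threshold. The change on WB exceeded that on MC by 5.87, SE 0.17, adjusted p = 3.6e-11.

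POX07099/FlbD rose on AV, WB, MC and HEC and fell on GLU. From 4 to 48 h the libraries went from 31.7, 27.2 and 25.2 FPKM (mean 28.1 ± 3.35) to 264, 206 and 239 FPKM (mean 237 ± 29) on AV, a log2 change of 3.03, SE 0.13, adjusted p = 1.84e-07. The log2 change was 4.10, SE 0.33, adjusted p = 6.93e-06 on WB, 2.87 on MC and 3.19 on HEC. On GLU the 3 libraries at 4 h, 43.7, 40.4 and 37.5 FPKM, all lay above the 3 at 48 h, 19.7, 18.1 and 15.6 FPKM, a log2 change of -1.15, SE 0.10, adjusted p = 8.18e-06. The change on GLU minus that on AV was -4.18, SE 0.17, adjusted p = 3.74e-10, and FlbD was the only member called lower at 48 h on GLU, while 2 were after rescaling.

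POX07025/AbaA rose on AV by 2.88, on HEC by 3.42 and on MC by 2.93, SE 0.14, adjusted p = 1.27e-07, with 1.36 to 17 FPKM on MC as an example. Its rises on WB (1.03) and GLU (1.35) passed the threshold but were not called after rescaling, and on WB the value fell below 1 without replicate 2 at 4 h (0.98) or replicate 1 at 48 h (0.93). The change on WB minus that on AV was -1.85, SE 0.21, adjusted p = 3.99e-06. POX08415/NsdD rose on all 5 sources, by between 1.19 on GLU and 2.51 on WB, with the calls on AV and GLU lost after rescaling. POX03789 was called on WB (log2 change 1.59) and on no other source. POX01257/STE12 was too (1.07), but not after rescaling and not without replicate 1 (0.94) or 2 (0.89) at 4 h. On WB at 4 h replicates 1 and 2 of STE12 had 95 and 88.1 FPKM and replicate 3 had 172.

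Of the other named members, the Zn2Cys6 gene POX09124 rose on every source, the most on GLU, where it went from 4.04, 3.07 and 1.28 FPKM (mean 2.8 ± 1.4) to 77.9 ± 1.35 FPKM (log2 change 4.45, SE 0.25, adjusted p = 9.26e-07). The Zn2Cys6 gene POX03380 rose on HEC from 3.65, 3.26 and 3.04 FPKM to 60.2, 71.9 and 61.7 FPKM (log2 change 3.92, SE 0.12, adjusted p = 2.2e-08). The winged helix gene POX09640 rose there from 0.50, 1.7 and 0.99 FPKM to 29.4, 25.7 and 26.2 FPKM (log2 change 3.81, SE 0.21, adjusted p = 7.06e-07). POX02944 rose on WB by 3.92 and on GLU by 3.27, while its changes on AV and MC were 0.74 and 0.55. The MIZ-type gene POX00838 rose on HEC by 2.87 and on WB by 2.21. In all, 9 members rose on each of the 5 sources (5.91% of all genes did), and 6 after rescaling (3.56%). A further 20 rose on WB and GLU without rising on a cellulose substrate (7.24% of all genes), and 7 were called on no source (28.7%).

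Falls were few. All but 1 of those on AV, MC and HEC came from members highest on NC at 4 h, and all but 4 after rescaling. The Zn2Cys6 gene POX04676 dropped on MC from 68.2, 72.2 and 68.2 FPKM (mean 69.5 ± 2.29) at 4 h to 6.93, 7.12 and 6.25 FPKM (mean 6.77 ± 0.457) at 48 h, a log2 change of -3.18, SE 0.11, adjusted p = 1.51e-08. It also fell on AV (log2 change -2.44, SE 0.10, adjusted p = 1.37e-07) and HEC (-2.80, SE 0.13, adjusted p = 2.98e-07). On NC it followed the same course, from 79 ± 17.8 to 13.6 ± 3.22 FPKM, whereas on GLU it was at 13.2 ± 1.28 and 23.5 ± 1.75, and the change on GLU exceeded that on MC by 3.98, SE 0.13, adjusted p = 9.58e-11. The C2H2 gene POX05769 also fell on MC (77.6 ± 9.36 to 24.8 ± 3.23 FPKM, log2 change -1.61, SE 0.14, adjusted p = 6.84e-06), HEC (log2 change -1.23, SE 0.13, adjusted p = 4.66e-05) and AV (log2 change -1.25). POX05190 fell on AV, from 99.6 ± 15.7 to 33.1 ± 4.14 FPKM (log2 change -1.55, SE 0.14, adjusted p = 2.22e-05).

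**Figure D5:**
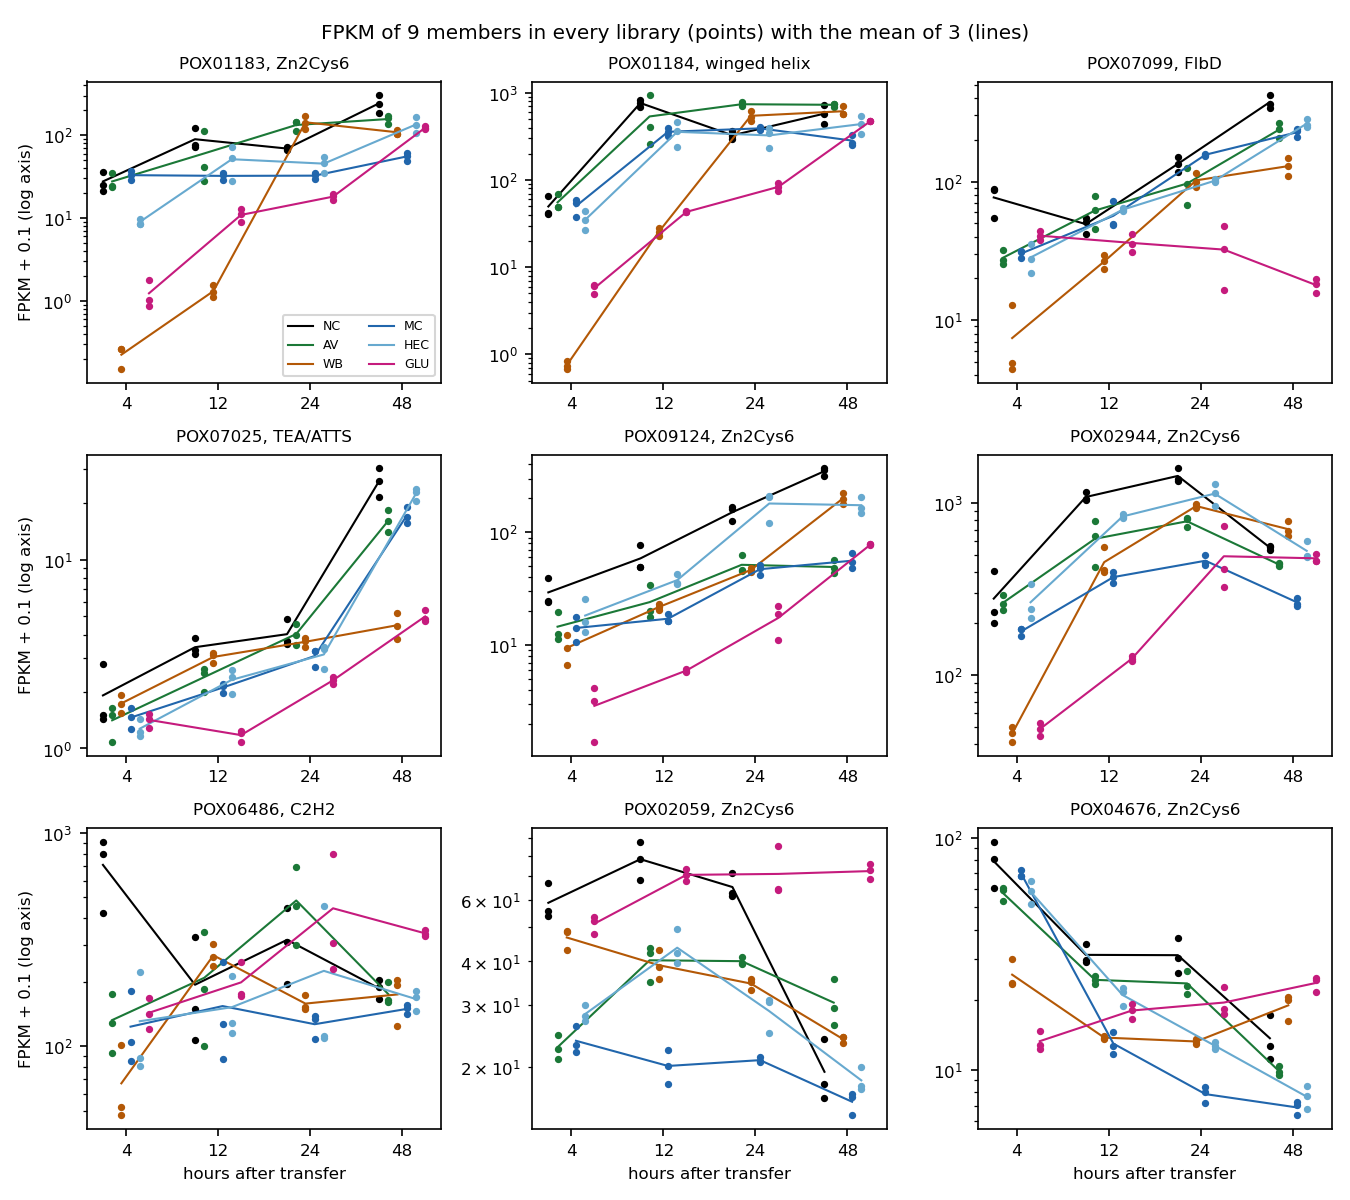
FPKM + 0.1 on log axes of 9 named members in every library (points, slightly shifted by carbon source) at 4, 12, 24 and 48 h, with lines through the means of 3. POX01183 and POX01184 start lowest on WB and GLU and approach the other sources by 24 h on WB and by 48 h on GLU. POX07099/FlbD at 48 h is at 17.8 FPKM on GLU and at 129 to 374 elsewhere, and POX04676 falls on AV, MC, HEC and NC.

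Among members with neighbouring gene numbers, POX01183 and POX01184 had a Pearson r of 0.93 over the 24 condition means of log2(FPKM + 1), POX04622 and POX04623 one of 0.57 and POX00935 and POX00936 one of 0.27. These are descriptions over conditions that share the scale of their libraries, and with the many pairs possible they carry no test. POX00936, a Zn2Cys6 gene, was higher than on GLU at 12 h on AV (log2 difference 2.30) and MC (1.90), while POX00935 was called in none of the comparisons with GLU.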

How the data were processed

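The authors aligned reads to the genome of *P. oxalicum* and deposited gene-level FPKM, 1 table per library. The submitters' notes name BWA 0.7.10-r789, Bowtie2 2.1.0, RSEM 1.2.12 and DESeq2. The study instead names HISAT for mapping to the genome, another version of Bowtie2 for mapping to genes, and RSEM for FPKM. The accounts thus differ in the aligners. FPKM keeps no read counts here, so the depth of each library is unknown and no count model or counting interval was used.

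Tables were joined by gene ID in Python 3.11.15 with pandas 2.3.3, and a gene not listed in a library was set to 0. Genes averaging 1 FPKM or more over the 72 libraries were compared with limma 3.58.1 (R 4.3.3, empirical Bayes with an intensity trend) on log2(FPKM + 1), which understates changes of low genes. Each fit held the 6 libraries compared, or 12 for a difference of changes. A gene was called at p of at most 0.05 and a difference of at least 1, the thresholds of the study. Printed p-values are Benjamini-Hochberg adjusted over all genes in the fit, those of named genes included. Rescaled values are FPKM divided by the median of ratios to the geometric mean over genes above 0 in every library. The fits were tested on simulated data.

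Named genes are those with the largest peaks and margins over conditions with a carbon source, the largest called differences in each comparison without NC, the members of the fixed lists, neighbours by gene number and the genes nearest the threshold of the rule. The window of gene numbers around POX01183 was chosen after its values were seen. The members and lists were chosen with earlier results of these data known, and the difference of changes was added after the single changes had been seen. The deleted gene could not be checked, because its gene ID was not identified here. Coordinates were not used.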

Additional observations from a re-analysis of the deposited data

Results flagged for a closer look

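The change of the 83 tested members from 4 to 48 h differed between carbon sources by the test of the difference itself (limma on 12 libraries). The rule had used these libraries and left out TF genes highest at 4 h on a carbon source. The counts are therefore not independent of the rule, and other TF genes were not counted separately. The change was higher by at least 1 on the log2 scale on WB than on AV for 51 members (24.0% of all genes), than on MC for 51 (25.0%) and than on HEC for 40 (19.9%). It was higher on GLU than on AV for 39 members (20.6% of all genes), than on MC for 30 (22.3%) and than on HEC for 29 (17.1%). Beside these counts, the median difference of the members was 1.34, 1.23 and 0.94 for WB and 0.94, 0.73 and 0.69 for GLU, and that of all genes was 0.03, 0.18, -0.08, 0.12, 0.33 and 0.02 in the same order. The size factor of the libraries differed between these groups too, from 0.852–0.875 on WB at 4 h to 1.12–1.16 at 48 h, and from 0.879–0.932 to 1.28–1.31 on GLU. Without that scale the counts, with shares of all genes, were 51 (23.2%), 39 (20.1%), 42 (21.5%), 31 (17.3%), 17 (14.4%) and 27 (16.1%) in the same order.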

How the results depend on the processing

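No direction of a named difference reversed under any alternative run, which were a pseudocount of 0.1, no filter on low values, rescaling, 1 fit of all 72 libraries, adjusted p, a replicate block and leaving out each library. The number of members was 66 after rescaling, 83 with the mean of at least 1 taken over 24 conditions, 86 with medians, 79–96 when a replicate number was left out and 87 without replicate 3 of NC at 24 h. Rescaling changed the most counts. Members lower than on NC went to 32 on AV, 39 on MC and 9 on HEC, those higher than on NC to 3 on WB and 2 on MC, and those lower than on GLU to 8 on AV and 13 on MC. From 4 to 48 h the falls went to 1 on WB, 8 on HEC and 2 on GLU, and the rises to 32 on GLU. The members with a higher change on GLU than on MC went to 17 and those with a lower one to 5. Beyond the scale itself the cause was not tested. A pseudocount of 0.1 gave 4 members higher on WB than on NC, 1 on MC, and 5 with a lower change on GLU than on MC.

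Leaving out single libraries moved small counts. Members higher than on NC, summed over 4 times, then spanned 3–6 on GLU, 2–4 on AV, 0–2 on HEC, 0–3 on WB and 0–1 on MC. The libraries behind these moves were replicate 1 of AV at 48 h (4 on AV), replicate 3 of NC at 12 h (3 on WB), replicate 3 of WB at 12 h (2 on WB), replicate 3 of NC at 24 h and replicate 2 of WB at 24 h (0 on WB each), replicate 3 of MC at 12 h and replicate 2 of NC at 12 and 48 h (1 on MC each), replicate 2 of NC at 12 h (2 on HEC), replicate 2 of HEC at 48 h and replicate 1 of NC at 48 h (0 on HEC each), and replicate 1 of NC at 48 h (3 on GLU). Those with a lower change on WB than on HEC spanned 2–4, with 4 without replicate 2 of HEC at 4 h. The rises from 4 to 48 h spanned 61–65 on WB, 49–52 on GLU, 28–32 on HEC, 19–23 on MC and 17–20 on AV.

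Replicate numbers did not pair the libraries in general, though some comparisons had correlated pairs. The deviations of equal numbers from their condition means had a mean r of 0.037 over 123 pairs. In 2 of 41 comparisons all 3 pairs exceeded 0.1. These were AV against NC at 12 h (0.642, 0.165 and 0.475) and AV against GLU at 4 h (0.277, 0.172 and 0.408). With the replicate number as a block the rises from 4 to 48 h were 63 on WB, 50 on GLU, 31 on HEC, 21 on MC and 19 on AV, and members lower than on NC were 52 on AV, 95 on MC and 28 on HEC. The block moved no other count by more than 1.5 times.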

Other observations

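POX01183 and POX01184 lie, by gene number, after a run of 14 genes from POX01169 to POX01182, which holds the genes the study calls ArpA-like (POX01176) and ArpB-like (POX01179). The window was chosen after the values of the pair were seen, and it is described by gene number only. On NC the mean levels of the 14 genes spanned 0.317–15.6 FPKM at 4 h (median 2.83), 909–9179 at 12 h (median 3006) and 1581–12723 at 48 h (median 3739). Of the 14, 13 had their highest level on NC at 48 h, as did 926 of the 9380 genes that reached 1 FPKM. WB levels of the 14 genes spanned 0.093–5.88 FPKM at the first time and 0.427–8.85 at 12 h, then 52.3–921 and 462–6059 by 24 and 48 h. Their GLU levels spanned 0.043–4.92 FPKM at 4 h and 4.07–43.2 at 12 h, then 2.17–18.2 and 372–4982 by 24 and 48 h. Over the 24 conditions, Pearson r of the 14 genes was 0.765–0.871 with POX01183 and 0.86–0.926 with POX01184, on log2(FPKM + 1). The run has no sharp edge after the pair. POX01185, POX01186 and POX01187 were also highest on NC at 48 h, with r of 0.867–0.897 with POX01183 and 0.831–0.922 with POX01184. POX01168, just before the run, was highest on NC at 12 h. These values share the scale of the libraries and carry no test.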
